A study of Mus musculus with 8 samples.

Results

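The day-night difference of every gene measured in the wild-type suprachiasmatic nucleus (SCN) is described here, as the level at circadian time 18 (CT18, subjective night) minus the level at circadian time 6 (CT6, subjective day). The members are all genes named by a probe with exactly 1 gene symbol, each taken from its brightest probe over the 8 arrays of the series. There were 19938 such genes, of which 12452 passed the level filter and were tested and 7486 did not. They were measured on 4 of the 8 arrays of the series, 2 at CT6 and 2 at CT18, called A and B at each time. The animals were C57BL/6J mice, held on 12 h of light and 12 h of darkness for over 2 weeks and then moved to constant darkness, and no other allele or agent is named for the wild type. Each array carried RNA from SCN cut out by laser microdissection and pooled from 10 mice, so the 4 wild-type arrays stand for 40 mice and no value belongs to a single animal. The other 4 arrays, 2 at each time, came from Gpr176-/- mice under the same schedule. They entered the fit, where they helped to estimate the spread, and the last comparison. With 2 time points, a difference shows neither the phase nor the full amplitude of a rhythm.

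The SCN is the hypothalamic nucleus that sets daily timing in mammals. Inside its neurons CLOCK and BMAL1 (the product of Arntl) bind E-box elements and switch on the Per and Cry genes, whose products return to block them. Nuclear receptors of the REV-ERB and ROR families act on Arntl through a further element, and PAR bZIP factors such as DBP oppose NFIL3 on D-box elements. The neurons are GABAergic, keep each other in step through peptides such as VIP and vasopressin, fire faster by day than by night, and carry timing out of the nucleus partly through secreted peptides such as prokineticin 2.

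Values below are log2 levels after quantile normalization of the 8 arrays, and a value after ± is the standard error of the difference from the limma fit, with 2 arrays at each time. A gene was called where limma's p, adjusted by Benjamini and Hochberg over the 12452 genes, was under 0.05, and "rose" and "fell" are written only of called genes. Folds are ratios of array signal. The 2 arrays of a time correlated at r = 0.996 over the genes tested at both times, and 13 genes at CT6 and 19 at CT18 lay 1.5-fold or more apart between A and B. Between the means of the 2 times 118 genes did. The tissue label was checked against its markers. Each of 15 listed SCN markers passed the level filter, as did 9 of 9 general and GABAergic neuron markers. Of 14 listed markers of neighbouring hypothalamic neurons 10 passed too, among them Oxt, the oxytocin gene. Passing the filter thus does not separate the SCN from its neighbours. The mean wild-type log2 level of Oxt was 11.53, beside 11.62 for Vip and 11.18 for Avp. In bulk tissue, fewer cells of a type and less RNA per cell cannot be told apart.

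In wild type 864 genes were called, 6.94% of those tested. Of these, 548 rose at CT18 (4.4% of those tested) and 316 fell (2.54%). The changes were mostly small. The median called rise was 0.32 and the median called fall was -0.35 on the log2 scale, and 188 calls were under 1.2-fold. The larger a change was, the more often it was a fall. At 1.5-fold or more 55 genes rose and 62 fell, and at 2-fold or more 5 rose and 22 fell. At 3-fold or more 1 rose and 7 fell, and at 4-fold or more 0 rose and 4 fell. On the values as deposited, and with each array centred on its median, 62 rose and 55 fell at 1.5-fold or more. Which direction was in the majority at 1.5-fold thus depended on the normalization. Both arrays of one time lay above both of the other for every one of the 864 called genes. They did so for 6494 genes, 52.2% of those tested, so that separation says little on its own. The number called was sensitive to single arrays. It dropped to 394 without CT6 array A, 367 without CT6 array B, 315 without CT18 array A and 492 without CT18 array B. With 1 array left out, the calls of 1.5-fold or more numbered 49 to 62 rises and 59 to 66 falls.

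**Figure D1:**
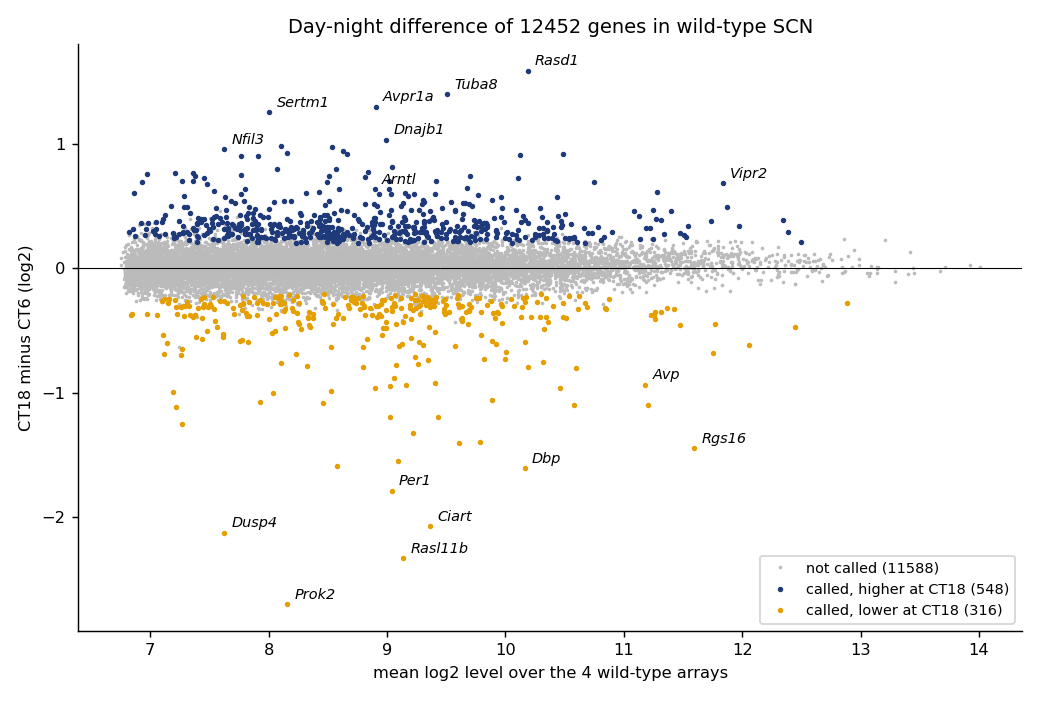
Each point is 1 of the 12452 genes tested, with its mean log2 level over the 4 wild-type arrays on the horizontal axis and CT18 minus CT6 (log2) on the vertical axis. The 548 called rises lie above 0 and reach 1.59 (Rasd1), and the 316 called falls lie below 0 and reach -2.70 (Prok2).

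The negative limb of the clock was lower at night. Of 8 listed repressors of E-box transcription, 6 fell (75%, beside 2.54% of all genes) and 0 rose. The list's median difference was -0.98, against 0.02 over all genes tested. Ciart, whose product represses CLOCK and BMAL1, fell furthest in this list. Its log2 level was 10.40 and 10.40 at CT6 and 8.20 and 8.46 at CT18, which is 4.2-fold lower (-2.07 ± 0.08, adjusted p = 9.64e-07). Per1 followed, at 9.94 and 9.93 at CT6 and 8.20 and 8.09 at CT18 (-1.79 ± 0.07, adjusted p = 9.64e-07), and the gap between times was many times that between arrays. Per2 measured 9.91 and 9.83 at CT6 and 8.31 and 8.33 at CT18 (-1.55 ± 0.09, adjusted p = 1.23e-05), and Per3 fell less, from 9.37 and 9.45 at CT6 to 8.76 and 8.81 at CT18 (-0.63 ± 0.05, adjusted p = 0.000125). These Period genes encode the scaffold of the repressor complex, and their falls were 3.45-fold, 2.92-fold and 1.54-fold. Bhlhe41, which encodes the E-box binding repressor DEC2, measured 9.96 and 9.80 at CT6 and 8.57 and 8.56 at CT18 (-1.32 ± 0.08, adjusted p = 1.57e-05). Its paralog Bhlhe40 showed a wide gap between the CT6 arrays, at 8.61 and 9.08 at CT6 and 8.24 and 8.19 at CT18 (-0.63 ± 0.12, adjusted p = 0.0124), and its call was lost without CT18 array A or CT18 array B (adjusted p = 0.0617 to 0.0648). The cryptochromes, the partners of the Period proteins, did not pass. Cry1 measured 8.77 and 8.58 at CT6 and 8.49 and 8.45 at CT18 (-0.21 ± 0.09, adjusted p = 0.21) and Cry2 9.26 and 9.28 at CT6 and 9.09 and 9.12 at CT18 (-0.17 ± 0.05, adjusted p = 0.0756).

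The activators and the second loop ran in both directions. Arntl rose 1.56-fold, from 8.60 and 8.56 at CT6 to 9.23 and 9.20 at CT18 (0.64 ± 0.05, adjusted p = 8.96e-05), and both night arrays lay far above both day arrays. Its partner Clock measured 10.41 and 10.54 at CT6 and 10.63 and 10.62 at CT18 (0.16 ± 0.07, adjusted p = 0.226) and the paralog Arntl2 7.03 and 7.05 at CT6 and 7.10 and 7.03 at CT18 (0.03 ± 0.06, adjusted p = 0.844), neither past the threshold. All 4 tested REV-ERB and ROR genes fell (100%, beside 2.54% of all genes). The REV-ERB genes Nr1d1, at 11.78 and 11.73 at CT6 and 10.59 and 10.73 at CT18 (-1.10 ± 0.07, adjusted p = 1.87e-05), and Nr1d2, at 11.02 and 11.23 at CT6 and 10.00 and 10.05 at CT18 (-1.10 ± 0.09, adjusted p = 8.19e-05), encode repressors of Arntl. The activator Rora fell with them, from 10.98 and 11.02 at CT6 to 10.20 and 10.19 at CT18 (-0.80 ± 0.05, adjusted p = 2.05e-05). Rorb fell less (-0.35 ± 0.07, adjusted p = 0.0189), and its call was lost without CT6 array B, CT18 array A or CT18 array B (adjusted p = 0.0716 to 0.131). The 3 PAR bZIP activators fell, and their opponent rose. Dbp measured 10.92 and 11.01 at CT6 and 9.37 and 9.35 at CT18 (-1.61 ± 0.08, adjusted p = 5.88e-06), a 3.04-fold fall, while Hlf fell 1.69-fold (-0.76 ± 0.06, adjusted p = 8.96e-05) and Tef 1.51-fold (-0.59 ± 0.06, adjusted p = 0.000355). Nfil3, the repressor that competes with them, rose 1.94-fold, from 7.16 and 7.14 at CT6 to 8.17 and 8.04 at CT18 (0.96 ± 0.07, adjusted p = 8.19e-05).

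**Figure D2:**
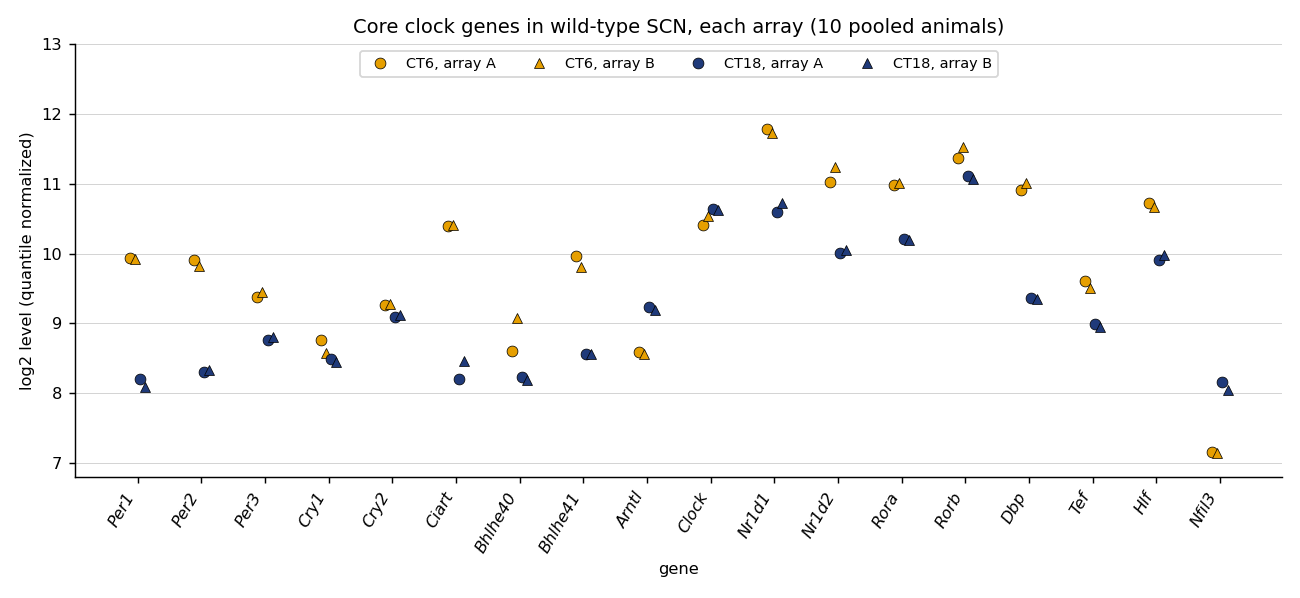
Log2 level of 18 clock genes on each wild-type array, CT6 in orange and CT18 in blue, array A as circles and array B as triangles. CT6 lies above CT18 for Per1, Per2, Ciart and Dbp by more than 1 log2 unit, CT18 lies above CT6 for Arntl and Nfil3, and Clock, Cry1 and Cry2, with smaller gaps, were not called.

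Among enzymes that modify clock proteins there were falls and no rises. Of 20 listed kinases, phosphatases and ubiquitin factors, 4 fell (20%, beside 2.54% of all genes) and 0 rose, and the list's median difference was 0.02. The falls numbered 2 with 1 wild-type array left out. Fbxl21, which encodes an F-box protein that acts on cryptochromes, was the exception in size, at 10.45 and 10.52 at CT6 and 9.08 and 9.11 at CT18 (-1.40 ± 0.06, adjusted p = 9.64e-07), 2.63-fold lower at night. Prkaa2, a catalytic subunit of AMP-activated kinase, fell 1.66-fold (-0.73 ± 0.09, adjusted p = 0.00131), whereas the other catalytic subunit Prkaa1 differed by 0.17 ± 0.07 (adjusted p = 0.182). The casein kinase gene Csnk1e (-0.21 ± 0.05, adjusted p = 0.0497) and the deubiquitinase gene Usp2 (-0.25 ± 0.05, adjusted p = 0.0215) were at the edge of the threshold. The call of Csnk1e was lost without any one of the 8 arrays (adjusted p = 0.0574 to 0.208) and on the values as deposited, with each array centred on its median, with no level filter, with the letters as a block or with each genotype fitted alone (adjusted p = 0.0746 to 0.174), and that of Usp2 without any one of the 4 wild-type arrays (adjusted p = 0.0594 to 0.133) and on the values as deposited or with each array centred on its median (adjusted p = 0.0939 to 0.125). Csnk1d differed by 0.03 ± 0.05 (adjusted p = 0.798), Csnk1a1 by -0.03 ± 0.07 (adjusted p = 0.831) and Gsk3b by 0.03 ± 0.07 (adjusted p = 0.848). For Csnk1d, Csnk1a1 and Gsk3b the difference was no larger than its standard error.

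Promoter windows of the RefSeq annotation (build GRCm38.p6) were searched for the elements through which these factors act, in the 250 bases before each annotated start and on both strands. The E-box was searched as CACGTG, the D-box as TTATGTAA or TTACGTAA, the core of the ROR element as TAGGTCA or TGGGTCA, the cyclic AMP response element (CRE) as TGACGTCA, and the heat shock element as GAANNTTC or TTCNNGAA. A shorter CRE pattern, TGACG, was searched too and is contained in the CRE. None of the other patterns is contained in another. A match is a description of letters, not a site in use, and no test was made. A window was held for 9957 of the 12452 genes tested, and a gene was counted where any of its windows matched. The E-box stood in 9.74% of these 9957 genes. It stood in 12.3% of the 253 called falls with a window and in 22.4% of the 49 falls of 1.5-fold or more (11 genes). Of the 444 called rises with a window 7.88% held it, as did 9.3% of the 43 rises of 1.5-fold or more (4 genes). The CRE stood in 3.04% of all, in 6.32% of the falls (16 genes) and in 2.25% of the rises (10 genes). The shorter TGACG lay nearer its background, in 29.8% of all, 32.0% of the falls and 25.9% of the rises. The ROR core stood in 5.15% of all, 5.14% of the falls and 5.86% of the rises. The D-box stood in 0.813% of all and the heat shock element in 11.7% of all and in 11.7% of the rises. Over all 32851 windows in the annotation, each counted singly, the E-box share was 6.02%, the D-box share 0.931% and the ROR core share 5.38%. The CRE share was 1.55%, the TGACG share 17.8% and the heat shock element share 12.8%. These are shares of windows, not of genes, so they are not on the same footing as those above.

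Shown first are windows of falling genes with an E-box, in capitals. Ciart holds 3 (chr3:95882229-95882478, minus strand), and Per1 (at one of its annotated starts, chr11:69098699-69098948, plus strand), Prok2 (chr6:99726393-99726642, minus strand) and Avp (chr2:130582589-130582838, minus strand) hold 1 each.
Ciart: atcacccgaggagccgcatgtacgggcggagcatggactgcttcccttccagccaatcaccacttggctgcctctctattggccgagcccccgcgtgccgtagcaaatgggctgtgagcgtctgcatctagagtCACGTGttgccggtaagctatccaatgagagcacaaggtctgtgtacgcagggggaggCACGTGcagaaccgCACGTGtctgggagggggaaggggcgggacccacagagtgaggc
Per1: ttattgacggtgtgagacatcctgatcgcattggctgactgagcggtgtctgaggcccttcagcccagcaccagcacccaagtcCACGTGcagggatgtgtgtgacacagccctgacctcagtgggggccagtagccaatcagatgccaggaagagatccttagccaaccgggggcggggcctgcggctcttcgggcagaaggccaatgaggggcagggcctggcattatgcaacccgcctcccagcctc
Prok2: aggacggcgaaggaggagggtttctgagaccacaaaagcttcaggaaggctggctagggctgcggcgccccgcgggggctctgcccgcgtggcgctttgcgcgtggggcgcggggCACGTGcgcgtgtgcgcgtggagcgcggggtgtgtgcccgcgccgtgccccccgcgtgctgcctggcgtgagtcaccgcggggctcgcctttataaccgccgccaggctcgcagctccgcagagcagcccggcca
Avp: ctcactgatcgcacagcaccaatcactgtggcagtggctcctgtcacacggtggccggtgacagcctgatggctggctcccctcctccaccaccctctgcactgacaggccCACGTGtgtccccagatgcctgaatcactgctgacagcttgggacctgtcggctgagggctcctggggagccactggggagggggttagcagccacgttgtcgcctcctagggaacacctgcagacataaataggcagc
Among the other named genes that fell, Bhlhe41, Tef, Nmu, Coq10b, Rgs7, Sik3 and Dusp1 also had an E-box in a window. So did Cry1, which did not pass. The named rising genes Tuba8, Mtnr1a, Adcy1, Hsph1, Slc6a3, Slc41a3, Galnt9 and Calr had an E-box in a window too.

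The remaining windows show the other elements in capitals, apart from TGACG outside a full CRE. The falling gene Per3 (chr4:151044666-151044915, minus strand) holds 2 D-boxes, and the rising gene Nfil3 (chr13:52981040-52981289, minus strand) a ROR core, read on the opposite strand. The rising chaperone gene Hspb1 (chr5:135887669-135887918, plus strand) holds 2 heat shock elements, and the falling phosphatase gene Dusp1 (chr17:26508473-26508722, minus strand) a CRE, with an E-box left in lower case.
Per3: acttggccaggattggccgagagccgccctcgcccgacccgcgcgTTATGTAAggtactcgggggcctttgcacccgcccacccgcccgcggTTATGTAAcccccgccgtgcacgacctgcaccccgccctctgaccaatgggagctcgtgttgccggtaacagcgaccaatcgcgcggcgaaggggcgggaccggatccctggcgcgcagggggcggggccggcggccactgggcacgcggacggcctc
Nfil3: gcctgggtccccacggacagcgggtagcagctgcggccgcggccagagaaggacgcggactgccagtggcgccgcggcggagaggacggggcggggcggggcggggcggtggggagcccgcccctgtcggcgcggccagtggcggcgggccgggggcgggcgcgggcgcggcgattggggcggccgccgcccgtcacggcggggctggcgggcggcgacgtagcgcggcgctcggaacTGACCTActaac
Hspb1: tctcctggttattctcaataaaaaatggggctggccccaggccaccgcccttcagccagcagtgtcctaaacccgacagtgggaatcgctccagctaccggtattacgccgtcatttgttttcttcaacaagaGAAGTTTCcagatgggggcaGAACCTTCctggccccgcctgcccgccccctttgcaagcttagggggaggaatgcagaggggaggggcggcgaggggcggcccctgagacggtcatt
Dusp1: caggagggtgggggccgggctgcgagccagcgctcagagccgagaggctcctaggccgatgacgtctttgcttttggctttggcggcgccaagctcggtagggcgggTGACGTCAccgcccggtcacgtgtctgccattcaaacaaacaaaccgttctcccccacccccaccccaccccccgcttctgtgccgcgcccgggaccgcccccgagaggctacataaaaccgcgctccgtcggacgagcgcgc
The levels of Hspb1 and Dusp1 are given with their gene groups.

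Among the peptides, secreted timing signals fell, while Vip, the peptide of the light-receiving core, did not pass. Of 24 tested neuropeptide precursor genes 4 fell and 1 rose (20.8% called, beside 6.94% of all genes), with a median difference of -0.04. The falls numbered 3 and the rises 0 to 1 with 1 wild-type array left out. Prok2, the prokineticin 2 gene, had the largest difference of all genes tested. It measured 9.59 and 9.42 at CT6 and 6.87 and 6.76 at CT18, a 6.49-fold fall (-2.70 ± 0.10, adjusted p = 9.1e-07), and its night level was close to the level filter of 6.82. Avp, the vasopressin gene of the SCN shell, measured 11.63 and 11.67 at CT6 and 10.69 and 10.74 at CT18 (-0.94 ± 0.06, adjusted p = 2.04e-05), and Nmu, the neuromedin U gene, 7.78 and 7.59 at CT6 and 6.73 and 6.66 at CT18 (-0.99 ± 0.08, adjusted p = 0.000128). At night Nmu lay under the filter on both arrays. Vip measured 11.64 and 11.56 at CT6 and 11.66 and 11.63 at CT18 (0.04 ± 0.06, adjusted p = 0.702), with the day and night arrays interleaved. Nms, the neuromedin S gene, passed narrowly (-0.25 ± 0.06, adjusted p = 0.0484), and its call was lost without any one of the 8 arrays (adjusted p = 0.0582 to 0.263) and on the values as deposited, with each array centred on its median, with no level filter, with the letters as a block or with each genotype fitted alone (adjusted p = 0.057 to 0.0873). The one rise was Adcyap1, the PACAP gene (0.37 ± 0.09, adjusted p = 0.036), lost without CT6 array A, CT6 array B or CT18 array A (adjusted p = 0.0779 to 0.229) and with no level filter or with each genotype fitted alone (adjusted p = 0.0524 to 0.0695).

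Some genes for packaging and cutting prohormones fell too. Of 11 tested, 4 fell (36.4%, beside 2.54% of all genes) and 0 rose, and all 4 falls kept their calls with any 1 array left out. Creb3l1, which encodes a membrane-bound transcription factor of the secretory pathway, measured 9.46 and 9.28 at CT6 and 7.82 and 7.75 at CT18, a 3.01-fold fall (-1.59 ± 0.07, adjusted p = 1.09e-06). Vgf, the precursor of secreted VGF peptides, measured 9.72 and 9.52 at CT6 and 8.40 and 8.45 at CT18 (-1.19 ± 0.07, adjusted p = 1.08e-05). The prohormone convertase gene Pcsk1 fell 1.66-fold (-0.73 ± 0.08, adjusted p = 0.000729) and Chga, the chromogranin A gene, 1.36-fold (-0.45 ± 0.06, adjusted p = 0.00224).

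Among peptide receptor genes rises outnumbered falls, and most were not called. Of 27 tested 6 rose, 2 fell and 19 were not called (29.6% called, beside 6.94% of all genes). Of the differences, 14 were above 0 and 13 below, with a median of 0.01. With 1 wild-type array left out the rises numbered 3 to 5 and the falls 1 to 2. Avpr1a, the V1a vasopressin receptor gene, measured 8.25 and 8.26 at CT6 and 9.60 and 9.51 at CT18, a 2.46-fold rise (1.30 ± 0.07, adjusted p = 8.96e-06), opposite to the fall of Avp. Vipr2, the VPAC2 receptor gene through which VIP acts on SCN neurons, measured 11.41 and 11.58 at CT6 and 12.17 and 12.19 at CT18 (0.68 ± 0.07, adjusted p = 0.000568). The prokineticin receptor gene Prokr2 rose 1.27-fold (0.34 ± 0.06, adjusted p = 0.0101), opposite to Prok2, but its call was lost without CT6 array A or CT18 array B (adjusted p = 0.0611 to 0.0737). Nmbr, the neuromedin B receptor gene, rose 1.44-fold (0.52 ± 0.08, adjusted p = 0.00561), lost without CT18 array A (adjusted p = 0.0525). The neurotensin receptor gene Ntsr1 fell 2.38-fold, from 7.95 and 7.83 at CT6 to 6.62 and 6.67 at CT18 (-1.25 ± 0.12, adjusted p = 0.000224), with night levels under 6.82. Cckar, a cholecystokinin receptor gene, fell 1.29-fold (-0.36 ± 0.07, adjusted p = 0.0101), lost without CT6 array A, CT6 array B or CT18 array A (adjusted p = 0.059 to 0.0856).

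Receptors for amines, melatonin, acetylcholine and purines gave 2 rises and 4 falls among 23 tested (26.1% called, beside 6.94% of all genes). Leaving out 1 wild-type array gave 1 to 2 falls and 2 rises. Drd5, a dopamine receptor gene, measured 7.08 and 7.09 at CT6 and 7.91 and 7.72 at CT18 (0.73 ± 0.07, adjusted p = 0.000225), and Mtnr1a, the MT1 melatonin receptor gene, 7.22 and 7.07 at CT6 and 7.80 and 7.84 at CT18 (0.68 ± 0.09, adjusted p = 0.00257). Both rose by a similar ratio, 1.66-fold and 1.6-fold. Slc6a3, the dopamine transporter gene, rose 1.46-fold (0.54 ± 0.05, adjusted p = 0.000285), and was the only call among 7 tested genes of dopamine synthesis and transport. Chrna3, a nicotinic acetylcholine receptor subunit gene, fell 2.65-fold, from 10.28 and 10.34 at CT6 to 8.90 and 8.91 at CT18 (-1.40 ± 0.06, adjusted p = 1.01e-06). Its partner subunit gene Chrnb4 fell 1.29-fold (-0.37 ± 0.09, adjusted p = 0.036), but that call was lost without CT6 array B, CT18 array A or CT18 array B (adjusted p = 0.0837 to 0.201) and with no level filter (adjusted p = 0.0695). The falls of Hrh3, a histamine receptor gene (-0.39 ± 0.08, adjusted p = 0.0186), and Htr5a, a serotonin receptor gene (-0.28 ± 0.07, adjusted p = 0.0452), were lost too. For Hrh3 this was without any one of the 4 wild-type arrays (adjusted p = 0.0604 to 0.132), and for Htr5a without any one of the 4 wild-type arrays or knockout CT6 array B (adjusted p = 0.0509 to 0.198) and on the values as deposited, with each array centred on its median or with no level filter (adjusted p = 0.083 to 0.136).

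**Figure D3:**
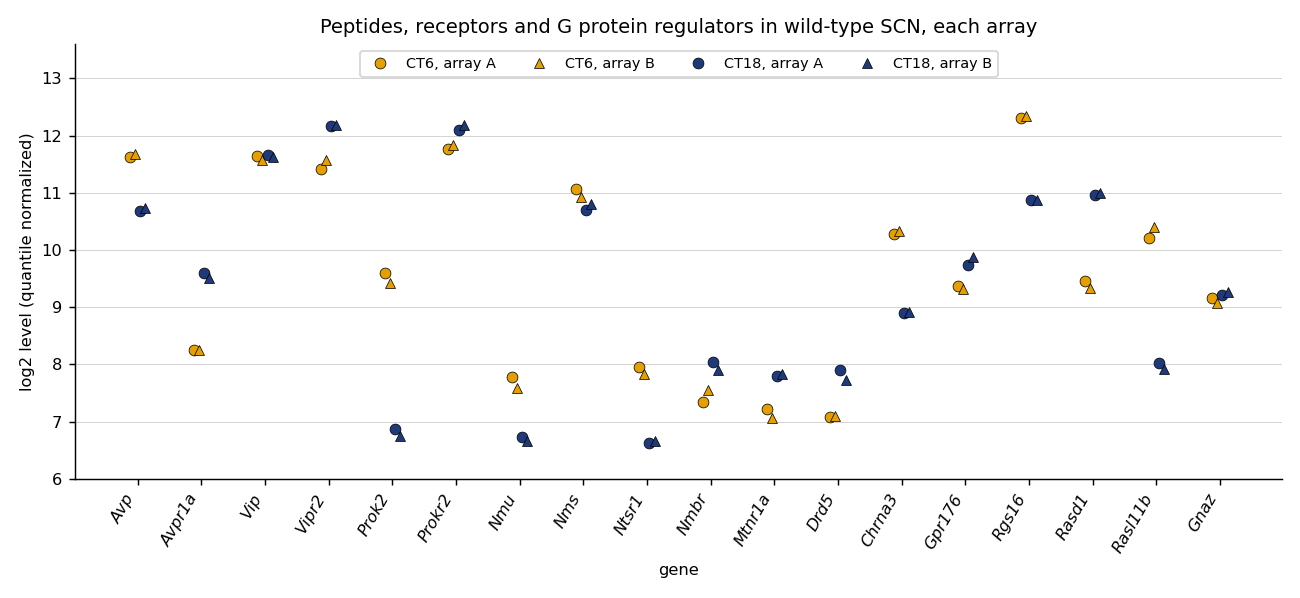
Log2 level on each wild-type array of peptides, receptors and G protein regulators, CT6 in orange and CT18 in blue, array A as circles and array B as triangles. Prok2, Avp, Rgs16 and Rasl11b are lower at CT18, Avpr1a, Vipr2, Gpr176 and Rasd1 are higher at CT18, and Vip and Gnaz were not called.

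Intracellular signalling held some of the largest changes in each direction. Rasd1, which encodes a Ras-like GTPase that modulates receptor signalling in the SCN, was the largest rise of all genes tested. It measured 9.46 and 9.33 at CT6 and 10.97 and 11.00 at CT18, 3.01-fold higher at night (1.59 ± 0.06, adjusted p = 9.64e-07). Its paralog Rasd2 fell 1.42-fold (-0.50 ± 0.05, adjusted p = 0.000511), and Rasl11b, another Ras-like gene, fell 5.02-fold, from 10.20 and 10.40 at CT6 to 8.02 and 7.93 at CT18 (-2.33 ± 0.08, adjusted p = 8.36e-07). In all, 2 of 17 tested genes of this family rose and 3 fell (29.4% called), and with 1 wild-type array left out 2 rose and 2 to 3 fell. Diras2 was the other rise (0.41 ± 0.06, adjusted p = 0.00404) and Gem the other fall (-0.60 ± 0.10, adjusted p = 0.00615), whose call was lost without CT6 array B (adjusted p = 0.0612). Rgs16, which encodes a GTPase activator that shortens G protein signalling, fell 2.72-fold, from 12.30 and 12.34 at CT6 to 10.87 and 10.88 at CT18 (-1.45 ± 0.05, adjusted p = 8.36e-07). Gpr176, an orphan receptor gene expressed in the SCN whose product signals through Gz, rose 1.37-fold, from 9.37 and 9.31 at CT6 to 9.73 and 9.87 at CT18 (0.46 ± 0.07, adjusted p = 0.00436). Gnaz, the gene of the Gz alpha subunit, measured 9.17 and 9.08 at CT6 and 9.21 and 9.26 at CT18 (0.11 ± 0.07, adjusted p = 0.387). Of 14 tested RGS genes 3 rose and 3 fell (42.9% called, beside 6.94% of all genes), and with 1 wild-type array left out 0 to 2 rose and 2 fell. Of 23 G protein subunit genes 0 rose and 2 fell (8.7%, beside 2.54% of all genes), and 1 to 2 fell with 1 wild-type array left out. Rgs2 was higher by 0.33 ± 0.06 (adjusted p = 0.00834) and Rgs4 by 0.29 ± 0.06 (adjusted p = 0.0136), and Rgs20 fell by 0.37 ± 0.06 (adjusted p = 0.00527). The call of Rgs2 was lost without CT6 array B or CT18 array B (adjusted p = 0.0542 to 0.0688), and that of Rgs4 without CT6 array B or CT18 array A (adjusted p = 0.0983 to 0.111). The rise of Rgs19 (0.27 ± 0.06, adjusted p = 0.0214) was lost without CT6 array A, CT6 array B or CT18 array A (adjusted p = 0.0666 to 0.16) and with each genotype fitted alone (adjusted p = 0.0524), and the fall of Rgs7 (-0.24 ± 0.06, adjusted p = 0.0301) without any one of the 4 wild-type arrays (adjusted p = 0.106 to 0.137) and on the values as deposited, with each array centred on its median or with no level filter (adjusted p = 0.0538 to 0.14). The beta subunit gene Gnb4 fell 1.45-fold (-0.53 ± 0.06, adjusted p = 0.000596). The gamma subunit gene Gng4 fell 1.21-fold (-0.28 ± 0.05, adjusted p = 0.0113), lost without CT6 array B, CT18 array A or CT18 array B (adjusted p = 0.0551 to 0.0849).

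Phosphodiesterase genes, whose products break down cyclic nucleotides, changed in both directions, while the called genes among cyclases, kinase A and the nitric oxide and cGMP pathway rose. Pde10a, at 9.65 and 9.65 at CT6 and 8.86 and 8.90 at CT18 (-0.76 ± 0.05, adjusted p = 2.98e-05), and Pde4d, at 9.71 and 9.52 at CT6 and 8.98 and 9.02 at CT18 (-0.61 ± 0.07, adjusted p = 0.000599), encode phosphodiesterases and fell, and Pde7b rose 1.38-fold (0.47 ± 0.07, adjusted p = 0.00308). Among 15 tested phosphodiesterase genes 4 rose and 3 fell (46.7% called, beside 6.94% of all genes). The count of rises was 1 to 2 and that of falls 2 to 3 with 1 wild-type array left out. Pkib, which encodes an inhibitor of protein kinase A, rose 1.55-fold, from 8.70 and 8.69 at CT6 to 9.35 and 9.31 at CT18 (0.63 ± 0.05, adjusted p = 8.19e-05), and the cyclase gene Adcy1 rose 1.35-fold (0.43 ± 0.09, adjusted p = 0.0189), lost without CT6 array B or CT18 array B (adjusted p = 0.105 to 0.13). These were the 2 calls among 17 cyclase and kinase A genes (11.8%, beside 4.4% of all genes that rose). Prkg2, a cGMP-dependent protein kinase gene, measured 8.02 and 8.07 at CT6 and 9.08 and 8.96 at CT18, a 1.97-fold rise (0.98 ± 0.07, adjusted p = 4.45e-05), and was the only call among 8 tested genes of the nitric oxide and cGMP pathway (12.5%, beside 6.94% of all genes). A further probe of Prkg2 lay below the filter and differed by 0.30. The smallest difference of Prkg2 under the other settings was 0.64, and its call was kept in each.

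Genes that follow neuronal activity and MAP kinase signalling fell more often than they rose at night. Of 20 tested immediate early genes 9 fell and 3 rose (60% called, beside 6.94% of all genes), with a median difference of -0.20. Plk2, a Polo-like kinase gene, fell 2.11-fold, from 8.96 and 9.04 at CT6 to 7.97 and 7.87 at CT18 (-1.08 ± 0.07, adjusted p = 1.74e-05). The orphan nuclear receptor genes Nr4a1, at 9.04 and 8.99 at CT6 and 7.92 and 8.15 at CT18 (-0.98 ± 0.08, adjusted p = 7.65e-05), Nr4a3 (-0.79 ± 0.10, adjusted p = 0.00118) and Nr4a2 (-0.52 ± 0.06, adjusted p = 0.00125) all fell. Fos fell 1.56-fold, from 7.58 and 7.59 at CT6 to 6.97 and 6.92 at CT18 (-0.64 ± 0.09, adjusted p = 0.00243). Npas4, a neuron-specific activity-dependent factor, went the other way, at 6.59 and 6.60 at CT6 and 7.37 and 7.33 at CT18, a 1.69-fold rise (0.75 ± 0.06, adjusted p = 8.74e-05). Its day level lay under 6.82, so it entered the test through its night level. Sik1, a kinase gene that is induced through CREB and feeds back on its coactivators, fell 2.08-fold, from 10.45 and 10.39 at CT6 to 9.33 and 9.39 at CT18 (-1.06 ± 0.05, adjusted p = 4.67e-06). With 1 wild-type array left out the immediate early falls numbered 7 and the rises 1 to 3.

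The dual-specificity phosphatases, only some of which switch MAP kinases off, gave 7 falls and 3 rises among 19 tested (52.6% called). Their median difference was -0.03. Dusp4 fell 4.36-fold, from 8.69 and 8.68 at CT6 to 6.62 and 6.50 at CT18 (-2.13 ± 0.10, adjusted p = 2.93e-06), and its night levels lay under 6.82. Dusp1 measured 9.74 and 9.99 at CT6 and 8.96 and 8.92 at CT18 (-0.92 ± 0.10, adjusted p = 0.00044), and Dusp10 (-0.63 ± 0.06, adjusted p = 0.00018) and Dusp16 (-0.61 ± 0.06, adjusted p = 0.000185) fell by amounts close to each other. Dusp7, which acts on ERK, rose 1.26-fold (0.34 ± 0.06, adjusted p = 0.0101), lost without CT6 array B, CT18 array A or CT18 array B (adjusted p = 0.0534 to 0.0805). With 1 wild-type array left out the phosphatase list's falls numbered 4 to 6 and its rises 1, and on the values as deposited 5 fell. Within the kinase cascade, 2 of 26 genes rose and 1 fell (11.5% called, beside 6.94% of all genes), and with 1 wild-type array left out 1 rose and 1 to 2 fell. Mapk14, the p38 alpha gene, rose 1.44-fold, from 8.89 and 8.87 at CT6 to 9.43 and 9.37 at CT18 (0.53 ± 0.05, adjusted p = 0.000321), and Spred3, an inhibitor of Ras signalling, fell 1.61-fold (-0.69 ± 0.08, adjusted p = 0.000725).

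Potassium channel subunits changed in both directions, more often than the 6.94% of all genes tested. Of 57 tested potassium channel genes 7 rose and 5 fell (21.1% called), with a median difference of 0.02, and with 1 wild-type array left out 2 to 6 rose and 2 to 4 fell. Kcnc2, which encodes a fast delayed rectifier of the Kv3 family, fell 1.52-fold, from 10.24 and 10.21 at CT6 to 9.61 and 9.62 at CT18 (-0.61 ± 0.06, adjusted p = 0.00037). Kcnma1, the pore of the BK channel, rose 1.34-fold, from 9.91 and 9.97 at CT6 to 10.39 and 10.33 at CT18 (0.42 ± 0.05, adjusted p = 0.00159), while the BK auxiliary subunit gene Kcnmb1 fell 1.31-fold (-0.39 ± 0.06, adjusted p = 0.00545). A further probe of Kcnma1 lay below the filter and differed by -0.05, and the call was lost with the mean of all probes (adjusted p = 0.079). Kcnd3, a subunit of A-type channels, rose 1.3-fold (0.37 ± 0.05, adjusted p = 0.00318). Among 41 tested calcium, sodium, HCN and TRP channel genes 1 was called (2.44%), the L-type calcium channel gene Cacna1c, which rose 1.39-fold from 9.01 and 8.93 at CT6 to 9.44 and 9.45 at CT18 (0.47 ± 0.06, adjusted p = 0.00167). Among 38 GABA and glutamate receptor genes 4 rose and 3 fell (18.4% called). The NMDA receptor subunit gene Grin2b rose 1.4-fold (0.49 ± 0.06, adjusted p = 0.00164), and the GABA-A epsilon subunit gene Gabre fell 1.29-fold (-0.36 ± 0.05, adjusted p = 0.00304). With 1 wild-type array left out the rises in that list numbered 1 to 2 and the falls 1. Of 34 vesicle release genes 0 rose and 2 fell (5.88%, beside 6.94% of all genes called and 2.54% that fell), and 0 to 1 fell with 1 wild-type array left out. The falls were those of Syt5, a synaptotagmin gene (-0.32 ± 0.06, adjusted p = 0.0134), lost without CT6 array A, CT6 array B or CT18 array A (adjusted p = 0.0701 to 0.111), and Unc13a, a vesicle priming gene (-0.25 ± 0.05, adjusted p = 0.0189), lost without any one of the 4 wild-type arrays (adjusted p = 0.0507 to 0.139) and on the values as deposited, with each array centred on its median or with the mean of all probes (adjusted p = 0.0541 to 0.114).

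Solute carriers, a family of 227 tested genes, gave 8 rises and 6 falls, near the background shares of 4.4% and 2.54%. Slc2a13, the proton and myo-inositol cotransporter gene, fell 1.6-fold, from 12.04 and 12.15 at CT6 to 11.44 and 11.39 at CT18 (-0.68 ± 0.08, adjusted p = 0.000984). The neutral amino acid transporter gene Slc6a15 fell 1.31-fold (-0.39 ± 0.06, adjusted p = 0.00308), and the magnesium transporter family gene Slc41a3 rose 1.28-fold (0.36 ± 0.05, adjusted p = 0.00304). With 1 wild-type array left out the rises numbered 2 to 5 and the falls 3.

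Cell surface and adhesion genes included several of the larger changes. Pcdh18, a protocadherin gene, measured 7.67 and 7.72 at CT6 and 8.62 and 8.61 at CT18, a 1.9-fold rise (0.92 ± 0.08, adjusted p = 0.000125), and Cdh13, the T-cadherin gene, rose 1.34-fold (0.42 ± 0.06, adjusted p = 0.00363). In all 5 of 28 tested cadherin and protocadherin genes rose and 1 fell (21.4% called), with 2 to 3 rises where 1 wild-type array was left out. In the Wnt family 1 of 20 rose and 3 fell (20% called, beside 6.94% of all genes), and with 1 wild-type array left out 1 rose and 3 to 4 fell. Fzd8, a Frizzled receptor gene, measured 7.70 and 7.52 at CT6 and 8.57 and 8.62 at CT18 (0.98 ± 0.11, adjusted p = 0.00054). The ligand gene Wnt5a (-0.69 ± 0.10, adjusted p = 0.00286) and the secreted antagonist genes Sfrp2 (-0.74 ± 0.07, adjusted p = 0.000285) and Dkk2 (-0.69 ± 0.08, adjusted p = 0.00069) fell. Of 34 tested heparan sulfate and sialic acid transferase genes 3 rose, 2 fell and 29 were not called (14.7% called, beside 6.94% of all genes). With 1 wild-type array left out 2 to 3 rose and 2 fell. Among sialyltransferases, St8sia6 fell 2.28-fold, from 10.01 and 10.04 at CT6 to 8.87 and 8.80 at CT18 (-1.19 ± 0.06, adjusted p = 3.52e-06), and St3gal1 2.01-fold (-1.01 ± 0.07, adjusted p = 2.98e-05), while St8sia2, a polysialic acid synthase gene, rose 1.62-fold (0.69 ± 0.07, adjusted p = 0.000285). A further probe of St3gal1 lay below the filter and differed by -0.11. Hs3st1, a heparan sulfate sulfotransferase gene, rose 1.56-fold, from 8.31 and 8.24 at CT6 to 8.89 and 8.94 at CT18 (0.64 ± 0.06, adjusted p = 0.000316).

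Many cytosolic chaperone genes were higher at night. Of 29 tested heat shock proteins and cochaperones 16 rose (55.2%, beside 4.4% of all genes) and 0 fell, and the median difference was 0.31, against 0.02 over all genes. With 1 wild-type array left out 11 to 12 rose. Dnajb1, an HSP40 cochaperone gene, measured 8.38 and 8.58 at CT6 and 9.59 and 9.44 at CT18, a 2.05-fold rise (1.03 ± 0.09, adjusted p = 0.000198). Hspb1, the small heat shock protein HSP27 gene, measured 8.09 and 8.25 at CT6 and 9.04 and 8.91 at CT18 (0.80 ± 0.08, adjusted p = 0.000371), and a further probe for it differed by 0.82. Hsph1, an HSP110 gene that exchanges nucleotide on HSP70, measured 10.37 and 10.43 at CT6 and 11.13 and 11.07 at CT18 (0.70 ± 0.06, adjusted p = 0.000152). The HSP90 cochaperone genes Chordc1 (0.73 ± 0.08, adjusted p = 0.000872), Fkbp4 (0.52 ± 0.07, adjusted p = 0.00217) and Stip1 (0.46 ± 0.05, adjusted p = 0.000643) rose as well. Both cold-inducible RNA-binding protein genes fell, Cirbp 1.32-fold (-0.40 ± 0.07, adjusted p = 0.00812) and Rbm3 1.31-fold (-0.39 ± 0.07, adjusted p = 0.00838). The call of Cirbp was lost without CT6 array B or CT18 array A (adjusted p = 0.0624 to 0.0679), and that of Rbm3 without CT6 array B or CT18 array A (adjusted p = 0.0638 to 0.066). Other probes of Rbm3 differed by -0.44 and -0.43. The window search took all 31 chaperone genes of the list on the array, 2 of which lay below the filter and were not tested. It found a heat shock element in 9 of the 27 with a window, 33.3%, beside 11.7% of the genes tested.

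Calls in other housekeeping groups ranged from 0 to 9 of 33. In the endoplasmic reticulum 6 of 33 folding and stress genes rose and 3 fell (27.3% called, beside 6.94% of all genes). Sdf2l1, which encodes a luminal cochaperone, rose 1.62-fold, from 8.67 and 8.66 at CT6 to 9.33 and 9.40 at CT18 (0.70 ± 0.06, adjusted p = 8.52e-05), and Herpud1, a degradation factor of the same organelle, fell 1.35-fold (-0.43 ± 0.06, adjusted p = 0.00196). Those rises numbered 2 to 4 and those falls 1 to 2 with 1 wild-type array left out. Of 34 aminoacyl-tRNA synthetase genes 5 rose (14.7%, beside 4.4% of all genes) and 0 fell. Tarsl2, a threonyl-tRNA synthetase gene, measured 8.23 and 8.08 at CT6 and 9.16 and 9.05 at CT18 (0.95 ± 0.07, adjusted p = 8.19e-05), and the other rises were at most 0.37 and were lost without at least 1 wild-type array. Tuba8, an alpha tubulin gene, measured 8.75 and 8.86 at CT6 and 10.23 and 10.18 at CT18, the second largest rise in the data at 2.64-fold (1.40 ± 0.07, adjusted p = 3.03e-06), and Tubg1, the gamma tubulin gene, rose 1.38-fold (0.46 ± 0.05, adjusted p = 0.000752), among 3 rises in 13 tubulin genes (23.1%), a count of 2 with 1 wild-type array left out. By limma's adjusted p, 0 of 54 cytosolic ribosomal protein genes, 0 of 44 proteasome subunit genes and 0 of 75 respiratory chain and ATP synthase genes were called. At an unadjusted p under 0.05 the counts were 6, 3 and 2. Below 0 were 45 of the 54 ribosomal protein differences, with a median of -0.06 in wild type and -0.003 in the knockout. In the proteasome list 24 of 44 were below 0, and in the respiratory chain list 42 of 75. Of 27 sterol and fatty acid synthesis genes 3 rose (11.1%) and 0 fell, but with 1 wild-type array left out the rises numbered 0 to 2.

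**Figure D4:**
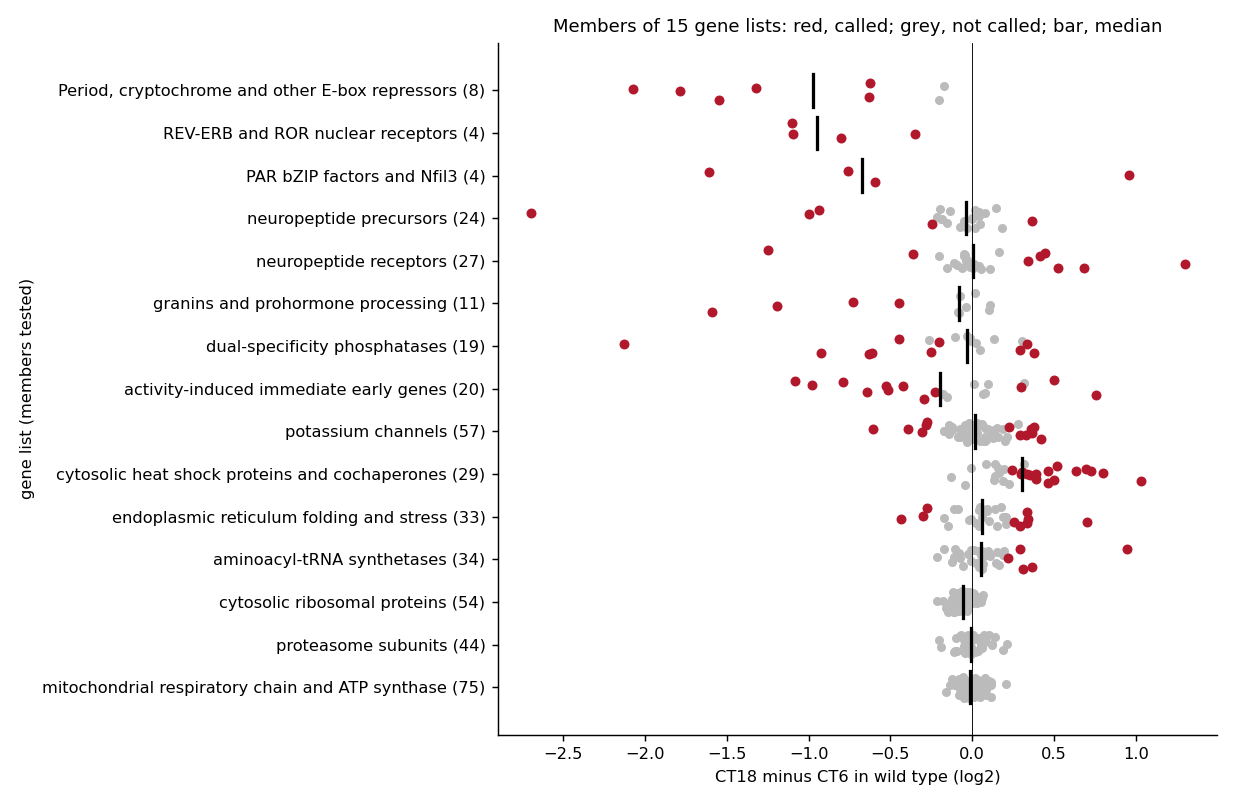
CT18 minus CT6 (log2) in wild type for each tested member of 15 gene lists, with called genes in red, others in grey and a bar at the list's median. The first 3 lists spread widely, chaperone members lie mostly above 0 with a median of 0.31, and the last 3 lists hold no called gene.

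Markers of other cell types were set beside these changes. Over 11 oligodendrocyte markers the mean log2 level was 9.54 and 9.67 at CT6 and 9.63 and 9.24 at CT18, so CT18 array B was the lowest. Of the 11 differences 10 were below 0, with a median of -0.11 in wild type and -0.18 in the knockout. Over 13 astrocyte markers it was 10.53 and 10.60 at CT6 and 10.62 and 10.53 at CT18. Over 10 leptomeningeal markers it was 7.91 and 8.32 at CT6 and 8.50 and 7.87 at CT18, which differed more between A and B than between times. Over 9 neuron markers it lay between 10.76 and 10.80, and over 10 markers of neighbouring neurons between 8.01 and 8.08. Over 6 ependymal and tanycyte markers it was 8.72 and 8.78 at CT6 and 8.61 and 8.66 at CT18, lower on both night arrays, and 5 of the 6 differences were below 0. Over 11 endothelial and mural markers it was 8.13 and 8.22 at CT6 and 8.16 and 8.03 at CT18, and over 9 microglia markers 8.04 and 8.04 at CT6 and 8.06 and 7.97 at CT18. The 1 blood cell marker tested, the erythroid heme synthesis gene Alas2, measured 7.15 and 7.25 at CT6 and 6.90 and 7.02 at CT18. By limma's adjusted p, 0 genes of these 4 lists were called. At an unadjusted p under 0.05 there were 3 ependymal, 5 endothelial, 1 microglia and 1 blood marker. One gene in each of the oligodendrocyte and astrocyte lists was called. Opalin, an oligodendrocyte membrane protein gene, fell 1.48-fold, from 7.65 and 7.79 at CT6 to 7.30 and 7.01 at CT18 (-0.56 ± 0.10, adjusted p = 0.00818), and its call was lost without CT6 array B (adjusted p = 0.0719). Fabp7, the brain fatty acid binding protein gene of astrocytes, fell 1.53-fold, from 12.30 and 12.44 at CT6 to 11.75 and 11.76 at CT18 (-0.62 ± 0.06, adjusted p = 0.000303). The part of cell content in these results was not tested.

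Several of the largest changes belonged to genes outside the lists. Sertm1, which encodes a small membrane protein, measured 7.42 and 7.34 at CT6 and 8.62 and 8.65 at CT18, a 2.38-fold rise (1.25 ± 0.07, adjusted p = 1.23e-05). Syt17, a synaptotagmin family gene, measured 9.99 and 10.07 at CT6 and 10.97 and 10.93 at CT18 (0.92 ± 0.06, adjusted p = 1.92e-05), and Akr1e1, an aldo-keto reductase gene, 9.64 and 9.69 at CT6 and 10.57 and 10.59 at CT18 (0.91 ± 0.06, adjusted p = 2.98e-05). In each of these the arrays of a time lay close together and far from those of the other time. Nefh, the heavy neurofilament gene, rose 1.76-fold (0.82 ± 0.08, adjusted p = 0.000355), Lgi2, a secreted leucine-rich repeat protein gene, 1.87-fold (0.90 ± 0.10, adjusted p = 0.000648), and Pdgfa, a growth factor gene, 1.68-fold (0.74 ± 0.06, adjusted p = 0.000128). The transcription factor gene Mycn rose 1.7-fold (0.77 ± 0.08, adjusted p = 0.000574). Among the falls, Klb, the beta-Klotho coreceptor gene, measured 7.69 and 7.86 at CT6 and 6.69 and 6.64 at CT18 (-1.11 ± 0.09, adjusted p = 0.000125), Strip2 8.43 and 8.50 at CT6 and 7.53 and 7.25 at CT18 (-1.07 ± 0.10, adjusted p = 0.000194), and Coq10b, a coenzyme Q binding protein gene, 9.44 and 9.33 at CT6 and 8.41 and 8.43 at CT18 (-0.96 ± 0.09, adjusted p = 0.000303). Klb was under 6.82 at night on both arrays.

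Some genes had more than 1 probe, which gives a partial check within the same RNA. For 53 called genes there were 70 further probes, of which 55 lay above the level filter. Of these 55, 53 differed in the direction of the main probe and 2 did not, those of Fam155a and Vsig10, named after their values were seen. The main probe of Ciart differed by -2.07 and a further probe by -1.67, and the 2 further probes of Pde4d differed by -0.72 and -0.61. Below the filter, 12 of 15 further probes had the same sign.

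The same difference was measured in the Gpr176-/- SCN, on arrays that are not shared with the wild type. The probe of the targeted gene Gpr176 measured 8.08 and 8.02 at CT6 and 8.42 and 8.56 at CT18 in the knockout, under every wild-type array (9.31 to 9.87) and above the level filter. It was called higher at CT18 in the knockout too, by 0.44 (adjusted p = 0.00507), beside 0.46 in wild type. No source used here places that probe inside or outside the deleted part of the gene. In the knockout 891 genes were called, 7.16% of those tested. Of the 864 wild-type calls 531 were also called in the knockout with the same sign, and 0 were called with the opposite sign. The 531 are 61.5% of the wild-type calls and 59.6% of the knockout calls. Both differences came from the same limma fit and shared its estimate of each gene's spread. With each genotype fitted alone, 384 of 703 wild-type calls were also called in the knockout with the same sign. In sign alone 845 of 864 went the same way and 19 did not, beside 68.2% of all genes tested. Across the 12452 genes, which are not independent replicates, the differences in the 2 genotypes correlated at r = 0.756. Of the 117 wild-type calls of 1.5-fold or more, 115 were called in the knockout. The other 2 were Slc25a38, a mitochondrial carrier gene, at 0.61 in wild type and 0.42 in the knockout (adjusted p = 0.0884), and Cdh19, a cadherin gene, at 0.60 and 0.40 (adjusted p = 0.0619). The wild-type call of Slc25a38 was lost without CT6 array A or CT18 array A (adjusted p = 0.122 to 0.157), with a difference of 0.39 without CT6 array A, and that of Cdh19 without CT6 array A or CT6 array B (adjusted p = 0.067 to 0.0849). The CT6 levels of Cdh19 lay under 6.82 in both genotypes (6.58 and 6.54 in wild type, 6.66 and 6.71 in the knockout), so it entered the test through its night level. Without 1 array of either genotype, the number called in both dropped to between 287 and 371. It was 319 without CT6 array A, 287 without CT6 array B, 288 without CT18 array A, 323 without CT18 array B, 327 without knockout CT6 array A, 303 without knockout CT18 array A and 299 without knockout CT18 array B.

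Whether the 2 differences differed from each other was tested as an interaction in the same limma fit. It called 0 genes, with a lowest adjusted p of 0.944, and 605 genes had an unadjusted p under 0.05, 79 of them wild-type calls. The median standard error of the interaction was 0.09. The clock genes lay close together, with Per1 at -1.79 in wild type and -1.66 in the knockout, Arntl at 0.64 and 0.64, and Dbp at -1.61 and -1.49. Prok2 measured -2.70 and -2.65, Avp -0.94 and -0.87, Vipr2 0.68 and 0.55, and Rasd1 1.59 and 1.54. Hspb1 was further apart, at 0.80 and 0.31, and Cirbp measured -0.40 and -0.20. The 5 genes with the smallest interaction p were Prp2 (-0.35 and 0.15), Pcdhb10 (0.17 and -0.38), Efcab10 (-0.08 and -0.47), Aph1b (0.34 and -0.06) and Arc (-0.23 and 0.11). Their interaction p did not pass adjustment.

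**Figure D5:**
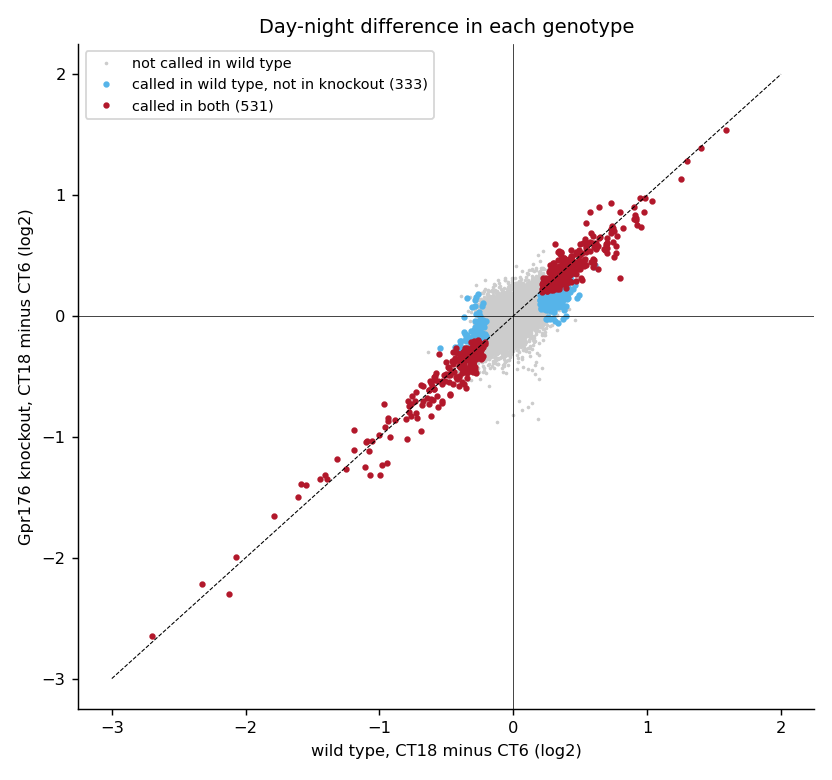
CT18 minus CT6 (log2) in wild type on the horizontal axis and in the Gpr176 knockout on the vertical axis for the 12452 genes tested, with a dashed line of equal values. The 531 genes called in both lie along the line from Prok2 at -2.70 and -2.65 to Rasd1 at 1.59 and 1.54, and the 333 called in wild type and not in the knockout lie nearer 0.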

How the data were processed

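RNA from laser-microdissected SCN was measured on whole-transcript arrays, 2 per genotype and time, each a pool of 10 mice. The authors deposited 1 table of log2 values for 28853 probes; their background correction, summarisation and normalization are not given in the sources used here. Their array medians were 7.34 to 7.39, and the lower quartiles spread over 0.139, so the 8 columns were quantile normalized, which would mask a shift common to most of them. The platform annotation names 21789 probes with 1 symbol, 1621 with several, and 5443 are unnamed here; 21698 matched the RefSeq table of GRCm38.p6 by Entrez number and 0 symbols changed. The brightest probe was kept per gene (999 genes had more than 1), and genes under the 40th percentile of all probes (log2 6.82) were left out.

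A mean per group was fitted to the 8 arrays in limma 3.58.1 (R 4.3.3; 4 residual and 5.58 prior degrees of freedom), with CT18 minus CT6 taken in each genotype and their difference as an interaction. P-values were adjusted with the Benjamini-Hochberg method over 12452 genes and called under 0.05. The fit was tested on simulated data. The number of arrays limits the precision, with a median standard error of 0.06 log2. Promoter windows were read with a script. The members, the 52 gene lists and the tests were chosen with earlier results of these data known. Named genes were the clock lists with Avp, Vip, Prok2, Gpr176, Gnaz and Rgs16, the 25 largest rises and falls among calls whose arrays did not overlap, up to 6 called members of each list, and the 5 smallest interaction p-values; provisional, Mir, Snor, Olfr and Vmn symbols were not named. Slc25a38 was named after its values were seen. The letters A and B were not used as pairs in the main fit, and the sample titles do not say what they stand for. The A minus B differences of 2 groups correlated at -0.222 to 0.257 over the 6 pairs of groups, with -0.222 between wild-type CT6 and CT18. Other settings are listed with their effect at the end.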

Additional observations from a re-analysis of the deposited data

How the results depend on the processing

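The counts and the named genes were recomputed under 17 other settings. Of 176 named and called genes, 103 stayed called in every setting, 73 were lost in at least 1 and 0 changed sign; of 24 not called, 2 were called in at least 1. No wild-type call took the opposite sign in any setting. The called genes numbered 813 on the values as deposited, 723 with each array centred on its median, 632 with no level filter, 972 with a 60th percentile filter, 879 with the mean of all probes, 1046 with a trended prior variance and 703 with each genotype fitted alone. With the letters as a replicate block the number was 765, and with the wild-type letters crossed, a setting chosen after seeing the data, 1180. With 1 array left out it lay between 315 and 842, with 172 to 539 rises and 141 to 303 falls, and the wild-type calls shared with the knockout numbered 287 to 371. The share of rises was 63.4% of calls, 71.6% on the values as deposited and 70.4% on centred values. Where leaving out an array left 1 array in a group, that array was assumed to vary like the others. Levels near the filter limit the falls of Prok2, Dkk2 and Wnt5a (1 night array under it) and of Nmu, Dusp4, Ntsr1, Klb and Chrnb4 (both), and the rises of Mycn (1 day array) and of Npas4 and Cdh19 (both).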

Other observations

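Calls in some further groups were counted. Shares are set beside the 4.4% of all genes tested that rose and the 2.54% that fell, and the counts after them are those with 1 wild-type array left out. Of 13 tested genes of NAD salvage and sirtuins 2 rose (15.4%) and 0 fell, with 0 rises. Of 46 splicing genes 0 rose and 2 fell (4.35%), with 0 to 2 falls. Of 13 Kruppel-like factor genes 0 rose and 1 fell (7.69%), with 0 falls. Of 12 glucocorticoid-responsive genes 1 rose and 1 fell (8.33% each), with 0 to 1 of each. Among 27 transcription factor genes of the SCN and hypothalamus 1 rose (3.7%) and 4 fell (14.8%), with 0 to 3 rises and 1 to 2 falls. The falls include Rora and Rorb, described with the clock genes. The rise was that of Lhx1, which specifies SCN neurons, at 9.65 and 9.61 at CT6 and 10.03 and 9.94 at CT18 (0.36 ± 0.06, adjusted p = 0.00855). Its call was lost without CT6 array B (adjusted p = 0.0676) or CT18 array A (adjusted p = 0.0703).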
